A study of Rattus norvegicus with 30 samples.

Results

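The 8 genes described here encode the neurotrophins BDNF and NT-3, the receptors TrkB, TrkC and p75, and the growth factor genes around them, namely the secreted peptide precursor VGF, the vascular growth factor VEGF-A and the receptor of insulin-like growth factor 1. They were chosen by name as *Bdnf*, *Ntf3*, *Ntrk2*, *Ntrk3*, *Ngfr*, *Vgf*, *Vegfa* and *Igf1r*, with earlier results of these data known. They are 8 of 13337 genes named on the array, with 1 probe each. All 8 probes passed the filter on low values, which kept 11906 of 22523 probes (52.9%). *Ntrk2*, the receptor of BDNF, was the only one of the 8 to pass the test in any comparison, and it was lower in extreme than in minimal responders when both sexes entered 1 comparison. *Bdnf* itself passed in no comparison.

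Neurotrophins are secreted proteins that support the survival of neurons and adjust the strength of their synapses. They are made as longer precursors, and each mature form binds a tyrosine kinase receptor of the Trk family, which signals through the MAPK, PI3K and phospholipase C cascades, while the p75 receptor binds all neurotrophins and their precursors. In the hippocampus BDNF acting on TrkB is known for its part in synaptic plasticity, and its transcription follows neuronal activity and stress.

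RNA from the dissected hippocampus of adult rats of the Sprague Dawley strain was hybridised to Illumina arrays, each of which carried 1 rat. The 6 groups are male and female rats exposed to the scent of a predator that showed an extreme behavioural response, exposed rats of either sex that showed a minimal one, and controls that went through the behavioural tests without exposure. The study asks which transcripts differ after exposure, and which differ between exposed rats that reacted strongly or weakly. No rat carried a mutation or a drug treatment per the labels, and extreme and minimal responders were sorted by behaviour after the same exposure rather than assigned to it. How long after exposure the tissue was taken is not stated in the labels. Of 30 arrays, 29 held values, 14 of male and 15 of female rats. Each group held 5 rats except the male minimal responders, which held 4 because the array of rat 5 had no values. The rats are separate animals, so the spread within a group holds that between animals and that between their arrays. Values are intensities on the log2 scale, on which 1 unit is a doubling.

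A division of the arrays and 1 array that stood apart bear on the results below. The arrays fell into a smaller set of 12, called set A, and a larger set of 17, called set B, at the widest gap in the values of a ribosomal protein probe, *Rpl37l1*, which measured 1.19. The sets are not in the labels, and no extreme responder lay in set A. That set held 3 male minimal responders, 3 male controls, 3 female minimal responders and 3 female controls. The spread within those groups also holds any difference between the sets, which that of the extreme responders does not. Each comparison was therefore also fitted with the set as a block. Male extreme responder 4 had a median correlation of 0.964 with the other arrays, against 0.977 to 0.988 for the rest. Of 13 marker genes of hippocampal pyramidal and granule neurons, 12 were above background.

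*Bdnf*, the most studied of the neurotrophins, passed the test in no comparison. In male rats it had log2 intensities of 8.20, 8.54, 8.39, 8.53 and 8.55 in extreme responders, 8.63, 8.24, 8.59 and 8.61 in minimal responders, and 8.62, 8.32, 8.20, 8.43 and 8.65 in controls. In female rats the values were 8.62, 8.77, 9.00, 8.55 and 8.32 in extreme responders, 8.45, 8.67, 8.48, 8.62 and 8.50 in minimal responders, and 8.93, 8.71, 8.79, 8.61 and 8.58 in controls. The groups overlapped in both sexes, and the female extreme responders spread most widely, holding both the highest *Bdnf* value of all 29 rats and 2 values below every female control. In male extreme responders relative to controls the log2 difference was −0.00 ± 0.11 (SE), with a 95% interval of −0.22 to 0.22 and an adjusted p of 0.995. In females that difference was −0.07 ± 0.11, with an interval of −0.29 to 0.15 and an adjusted p of 0.847. For female minimal responders relative to controls it was −0.18 ± 0.11, with an interval of −0.40 to 0.04 (adjusted p = 0.545). With the array set as a block, extreme responders differed from controls by −0.12 ± 0.11 (SE) in males (adjusted p = 0.630) and by −0.19 ± 0.11 in females (adjusted p = 0.417), and female minimal responders by −0.18 ± 0.10 (adjusted p = 0.421). *Bdnf* itself differed between the sets by −0.20 ± 0.07 (set A minus set B within groups, unadjusted p = 0.0130, adjusted p = 0.0640).

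*Ntf3* encodes NT-3, the preferred ligand of TrkC, which in the hippocampus is known from the granule cells of the dentate gyrus. In male rats its log2 intensities were 7.41, 8.07, 8.02, 6.96 and 8.08 in extreme responders, 8.42, 8.13, 8.11 and 7.97 in minimal responders, and 7.79, 8.16, 8.20, 8.24 and 8.35 in controls. In female rats they were 8.50, 8.06, 8.13, 7.97 and 8.17 in extreme responders, 7.72, 8.32, 8.29, 7.87 and 7.88 in minimal responders, and 8.34, 8.21, 8.51, 8.35 and 8.74 in controls. Female controls were the highest group and male extreme responders the lowest, where rats 1 and 4 fell below every male control and rat 4 fell below the background threshold of 7.02. Of the 10 extreme responders, 9 lay below the median of the 10 controls. With both sexes together, extreme responders had a log2 difference from controls of −0.35 ± 0.12 (SE), an intensity ratio of 0.783, which missed the threshold (unadjusted p = 0.00661, adjusted p = 0.0859). The difference was −0.26 without male extreme responder 4 and −0.30 with the array set as a block (adjusted p = 0.256). It passed the threshold without male extreme responder 5 (−0.40, adjusted p = 0.0498) and with array weights (−0.35, adjusted p = 0.0452).

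The sexes and the 2 kinds of responder did not line up for *Ntf3*. In males, extreme responders had a mean of 7.71 ± 0.50 (SD, n = 5), minimal responders 8.16 ± 0.19 (n = 4) and controls 8.15 ± 0.21 (n = 5). The extreme difference was −0.45 ± 0.18 (SE) from minimal responders (adjusted p = 0.235) and −0.44 ± 0.17 from controls (adjusted p = 0.189). The second of these was −0.25 without male extreme responder 4. In females the lowest mean was that of minimal responders, at 8.02 ± 0.27 (SD, n = 5), below extreme responders at 8.16 ± 0.20 and controls at 8.43 ± 0.20. Female minimal responders differed from controls by −0.42 ± 0.17 (SE, adjusted p = 0.370), and female extreme responders by −0.27 ± 0.17 (adjusted p = 0.535). The difference between the sexes in the contrast of extreme with minimal responders, male minus female, was −0.60 ± 0.25 (unadjusted p = 0.0225, adjusted p = 0.527). For all exposed rats, the mean of minimal and extreme responders in both sexes, the log2 difference from controls was −0.28 ± 0.11 (SE, adjusted p = 0.413).

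The promoter windows of the members were searched for motifs of activity and stress signalling, and the windows of *Vgf* and *Bdnf* are printed because they alone held one. RefSeq's GRCr8 windows of 300 bases, running from 250 bases before the gene start to 50 after it, numbered 13 for 5 members, of which *Bdnf* had 6, *Ntf3* 3, *Vegfa* 2, *Vgf* 1 and *Igf1r* 1. The motifs were the cAMP response element TGACGTCA, the shorter TGACG, which lies within it, and the glucocorticoid response element, AGAACA and TGTTCT with any 3 bases between them, each on both strands. The *Vgf* window, chr12:25276971-25277270 on the minus strand, held the whole cAMP response element 90 bases before the gene start. One of the *Bdnf* windows, chr3:116637608-116637907 on the plus strand, held TGACG on the opposite strand, read as CGTCA, 35 bases before the start. Both are given 5′ to 3′ with the match in capitals.
Vgf: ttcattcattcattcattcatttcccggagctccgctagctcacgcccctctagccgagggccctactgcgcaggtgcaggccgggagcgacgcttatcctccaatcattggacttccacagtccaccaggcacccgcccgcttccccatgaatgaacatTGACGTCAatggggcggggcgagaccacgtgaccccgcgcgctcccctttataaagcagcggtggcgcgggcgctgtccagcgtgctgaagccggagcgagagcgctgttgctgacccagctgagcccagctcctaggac
Bdnf: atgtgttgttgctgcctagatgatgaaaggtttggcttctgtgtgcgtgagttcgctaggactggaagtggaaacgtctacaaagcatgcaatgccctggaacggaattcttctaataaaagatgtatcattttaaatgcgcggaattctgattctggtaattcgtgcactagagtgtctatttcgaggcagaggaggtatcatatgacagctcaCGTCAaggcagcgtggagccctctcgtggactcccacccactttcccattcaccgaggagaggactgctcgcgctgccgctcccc
Of 33469 such windows, 1.83% hold TGACGTCA, 21.2% hold TGACG and 0.0149% hold the glucocorticoid element, which none of the 13 windows held. A match is a string of letters and does not say that a factor binds there.

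*Ntrk2* encodes TrkB, the receptor through which mature BDNF acts on neurons and, in a form without the kinase, on astrocytes. In male rats its log2 intensities were 10.99, 10.69, 10.80, 11.50 and 10.93 in extreme responders, 11.07, 11.07, 11.30 and 11.45 in minimal responders, and 11.04, 11.24, 10.59, 11.19 and 10.94 in controls. In female rats they were 10.64, 10.87, 11.03, 10.88 and 10.88 in extreme responders, 11.41, 11.18, 11.09, 11.28 and 11.44 in minimal responders, and 11.09, 11.14, 11.40, 11.32 and 11.19 in controls. All 5 female extreme responders lay below all 5 female minimal responders and all 5 female controls. Of all probes, 4.07% were separated in this way from the female minimal responders and 1.89% from the female controls. In males 4 of the 5 extreme responders lay below every minimal responder, while rat 4 was the highest of all 29 rats, and extreme responders and controls overlapped. Over both sexes, 9 of 10 extreme responders were below the lowest of the 9 minimal responders. The share of all probes that separate as far over both sexes was not computed. The file does not say which of the receptor's transcript forms the probe reads.

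**Figure D1:**
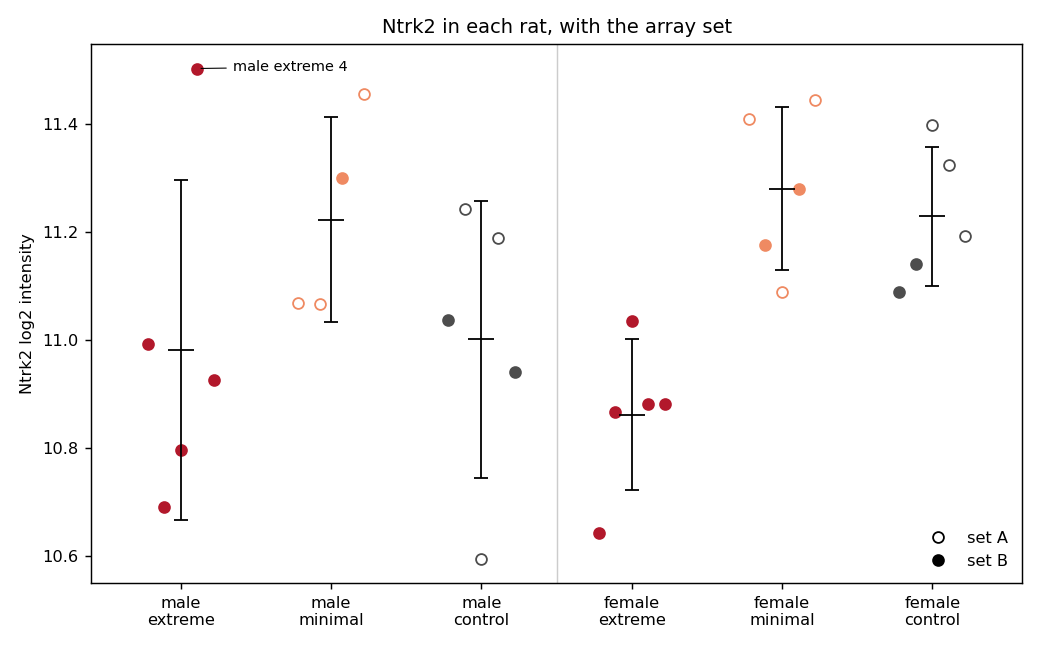
Log2 intensity of the *Ntrk2* probe in each rat (points) by group, with the group mean and SD (bars); open points are arrays of set A and filled points of set B. The female extreme responders, at 10.64 to 11.03, lie below all female minimal responders and controls, and male extreme responder 4 lies at 11.50.

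With both sexes fitted together, *Ntrk2* fell in extreme relative to minimal responders. The log2 difference was −0.33 ± 0.09 (SE), with a 95% interval of −0.52 to −0.14 and an adjusted p of 0.0261. This corresponds to an intensity ratio of 0.796, or about 20.4% less signal. It was 1 of 944 probes that passed in this comparison, 7.93% of those tested, of which 551 were lower (4.63%). A single call among 8 genes is close to what that background share gives. In hippocampal tissue, fewer cells that carry a transcript and less of it in each cell cannot be told apart.

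The call depended on the array set and on single rats. With the set as a block the difference was −0.29 ± 0.11 (SE) and the adjusted p 0.165, a fit in which 244 probes passed (2.05%). With the block and without male extreme responder 4, it was −0.35 ± 0.10 with an adjusted p of 0.0417. Leaving out 1 rat at a time gave −0.39 to −0.29, and the call held in 26 of 29 such fits. It was lost without female extreme responder 1, female minimal responder 5 or male minimal responder 4, with an adjusted p of at most 0.0714. Without male extreme responder 4, the rat that stood apart, the adjusted p was 0.00391. *Ntrk2* itself differed little between the sets, by 0.06 ± 0.10 (set A minus set B within groups, adjusted p = 0.709).

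**Figure D2:**
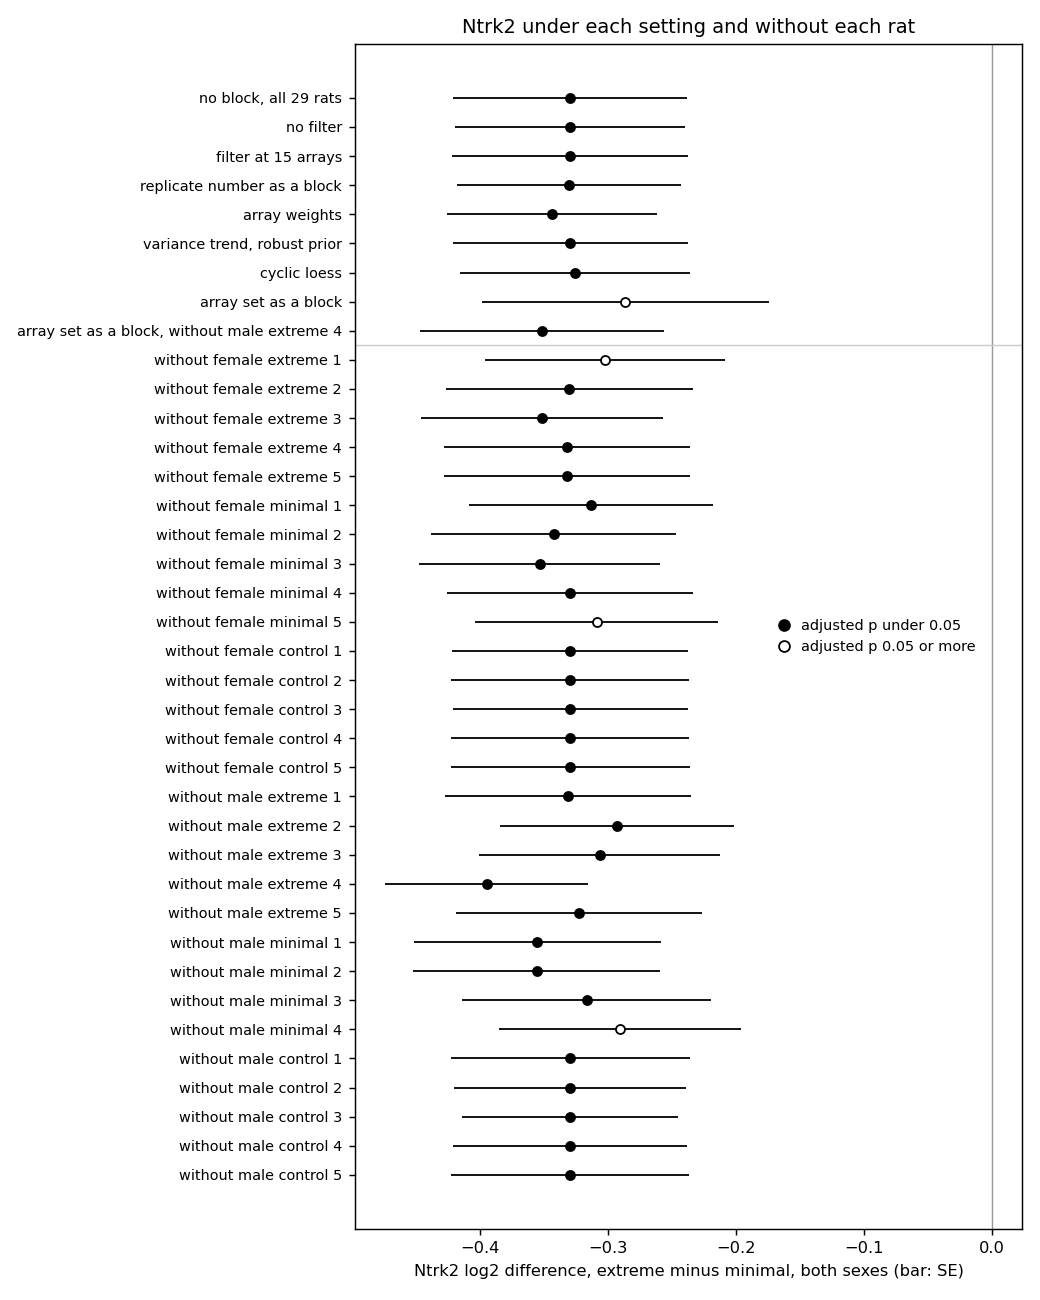
Log2 difference of *Ntrk2* between extreme and minimal responders of both sexes (x axis, bars are the SE) under each way of fitting and without each rat in turn (y axis). All values lie between −0.39 and −0.29, and open points mark the fits in which the adjusted p was 0.05 or more.

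Within each sex, *Ntrk2* missed the threshold in the fit of all 6 groups. Female extreme responders averaged 10.86 ± 0.14 (SD, n = 5), minimal responders 11.28 ± 0.15 (n = 5) and controls 11.23 ± 0.13 (n = 5). The female extreme difference was −0.42 ± 0.13 (SE) from minimal responders (adjusted p = 0.0571) and −0.37 ± 0.13 from controls (adjusted p = 0.163). These differences share the same extreme responders. Groups that do not overlap, with extreme responders lower, were found for 4.07% of probes against female minimal responders and for 1.89% against female controls. When the 15 female arrays were fitted alone, both differences passed, with adjusted p of 0.0154 and 0.0480. The first also passed with array weights (−0.40, adjusted p = 0.0268) and without male extreme responder 2, male extreme responder 4 or male control 3, rats that enter it only through the shared spread. With the set as a block the female differences were −0.38 (adjusted p = 0.123) and −0.33 (adjusted p = 0.234). Within set B, which held 2 female minimal responders and 2 female controls, they were −0.37 ± 0.16 (SE, adjusted p = 0.388) and −0.25 ± 0.16 (adjusted p = 0.705).

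Male extreme responders averaged 10.98 ± 0.31 (SD, n = 5) for *Ntrk2*, minimal responders 11.22 ± 0.19 (n = 4) and controls 11.00 ± 0.26 (n = 5). The extreme difference was −0.24 ± 0.13 (SE) from minimal responders (adjusted p = 0.398) and −0.02 ± 0.13 from controls (adjusted p = 0.963). Without male extreme responder 4 these were −0.37 ± 0.12 (adjusted p = 0.192) and −0.15 ± 0.11 (adjusted p = 0.612). The difference between the sexes in the contrast of extreme responders with controls, male minus female, was 0.35 ± 0.18 (adjusted p = 0.598), and 0.22 ± 0.15 without that rat (adjusted p = 0.830). A difference between the sexes was thus not shown. For minimal responders relative to controls, the *Ntrk2* differences were 0.22 ± 0.13 in males (adjusted p = 0.998) and 0.05 ± 0.13 in females (adjusted p = 0.906).

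*Ntrk3*, which encodes TrkC, the receptor of NT-3, had its lowest means in the extreme responders of both sexes and passed in no comparison. In male rats its log2 intensities were 9.35, 9.20, 9.50, 9.48 and 8.98 in extreme responders, 9.74, 9.48, 9.27 and 9.61 in minimal responders, and 9.33, 9.65, 9.36, 9.54 and 9.17 in controls. In female rats they were 9.32, 9.39, 9.62, 9.11 and 9.16 in extreme responders, 9.40, 9.43, 9.45, 9.33 and 9.83 in minimal responders, and 9.46, 9.36, 9.84, 9.80 and 9.58 in controls. The groups overlapped in every pair. With both sexes together, extreme responders differed by −0.19 ± 0.09 (SE) from minimal responders (adjusted p = 0.181) and by −0.20 ± 0.09 from controls (adjusted p = 0.198). With the set as a block these became −0.01 ± 0.09 and −0.04 ± 0.09. *Ntrk3* was 0.27 ± 0.08 higher in set A than in set B within groups (adjusted p = 0.0148), with means of 9.61 over 12 rats and 9.34 over 7. Between the sets within groups, 3 of the 8 genes differed (*Ntrk3*, *Vgf* and *Vegfa*), as did 18.9% of all probes.

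*Ngfr* encodes the p75 receptor, which in the forebrain is known from cholinergic neurons that project to the hippocampus. Its log2 intensities ran from 6.65 to 7.50 over all rats, and it was above background on 27 of 29 arrays. Male means were 7.12 ± 0.26 (SD, n = 5) in extreme responders, 7.13 ± 0.06 (n = 4) in minimal responders and 7.28 ± 0.11 (n = 5) in controls. Female means were 7.21 ± 0.22 in extreme responders, 7.29 ± 0.08 in minimal responders and 7.18 ± 0.12 in controls (n = 5 each). None of these gaps passed. The widest difference between groups of 1 sex was −0.17 ± 0.10 (SE) in male extreme responders relative to controls (adjusted p = 0.424), where male extreme responder 4 had the lowest *Ngfr* value of all. Without that rat the difference was −0.05 ± 0.09 (adjusted p = 0.872).

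*Vgf* encodes a precursor of secreted peptides that is known as a target of BDNF and of neuronal activity. It ran from 7.10 to 7.81 over the 29 rats, above background on every array. Male means were 7.25 ± 0.13 (SD, n = 5) in extreme responders, 7.37 ± 0.29 (n = 4) in minimal responders and 7.32 ± 0.14 (n = 5) in controls. Female means were 7.44 ± 0.21 in extreme responders, 7.48 ± 0.27 in minimal responders and 7.33 ± 0.19 in controls (n = 5 each). Female extreme responders differed from controls by 0.12 ± 0.13 (SE, adjusted p = 0.765), and by 0.28 ± 0.12 with the set as a block (adjusted p = 0.260). *Vgf* was 0.26 ± 0.08 higher in set A than in set B within groups (adjusted p = 0.0273).

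*Vegfa* encodes VEGF-A, a growth factor of blood vessels that also acts on neurons and progenitor cells. Its probe was dim, above background on 21 of 29 arrays, so a difference near that floor may be understated. In male rats its log2 intensities were 7.13, 7.03, 7.24, 7.66 and 7.04 in extreme responders, 6.99, 6.86, 7.37 and 7.02 in minimal responders, and 7.26, 6.82, 7.02, 7.12 and 7.12 in controls. In female rats they were 7.13, 6.86, 7.05, 7.21 and 7.16 in extreme responders, 7.09, 7.16, 7.01, 7.12 and 6.71 in minimal responders, and 7.34, 7.60, 7.23, 7.14 and 7.11 in controls. Female controls had the highest mean, although the groups overlapped, and the highest single value was that of male extreme responder 4. Female minimal responders differed from controls by −0.26 ± 0.12 (SE, adjusted p = 0.418) and female extreme responders by −0.20 ± 0.12 (adjusted p = 0.496).

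The array set moved *Vegfa* the other way from the TrkC gene. Within groups it was −0.27 ± 0.08 in set A relative to set B (adjusted p = 0.0123), with means of 7.01 over 12 rats and 7.28 over 7. With the set as a block, female extreme responders differed from controls by −0.36 ± 0.11 (SE, adjusted p = 0.0817). With the block and without male extreme responder 4 that difference was −0.36 and passed (adjusted p = 0.0234), as did that of both sexes together (−0.24, adjusted p = 0.0431). Without the block, the value of both sexes was −0.02 ± 0.08 (adjusted p = 0.918). The difference between the sexes in the contrast of extreme responders with controls, male minus female, was 0.35 ± 0.17 (unadjusted p = 0.0453, adjusted p = 0.574).

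*Igf1r*, the receptor through which insulin-like growth factor 1 acts on neurons and glia, passed in no comparison and ran from 7.95 to 8.58 over the 29 rats. Male means were 8.15 ± 0.16 (SD, n = 5) in extreme responders, 8.35 ± 0.12 (n = 4) in minimal responders and 8.24 ± 0.16 (n = 5) in controls. Female means were 8.30 ± 0.19 in extreme responders, 8.28 ± 0.20 in minimal responders and 8.18 ± 0.13 in controls (n = 5 each). All groups overlapped. The widest *Igf1r* difference was −0.20 ± 0.11 (SE) in male extreme relative to minimal responders (adjusted p = 0.390), and −0.22 with the set as a block (adjusted p = 0.507). *Igf1r* itself differed between the sets by −0.03 ± 0.08 (set A minus set B within groups, adjusted p = 0.833).

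**Figure D3:**
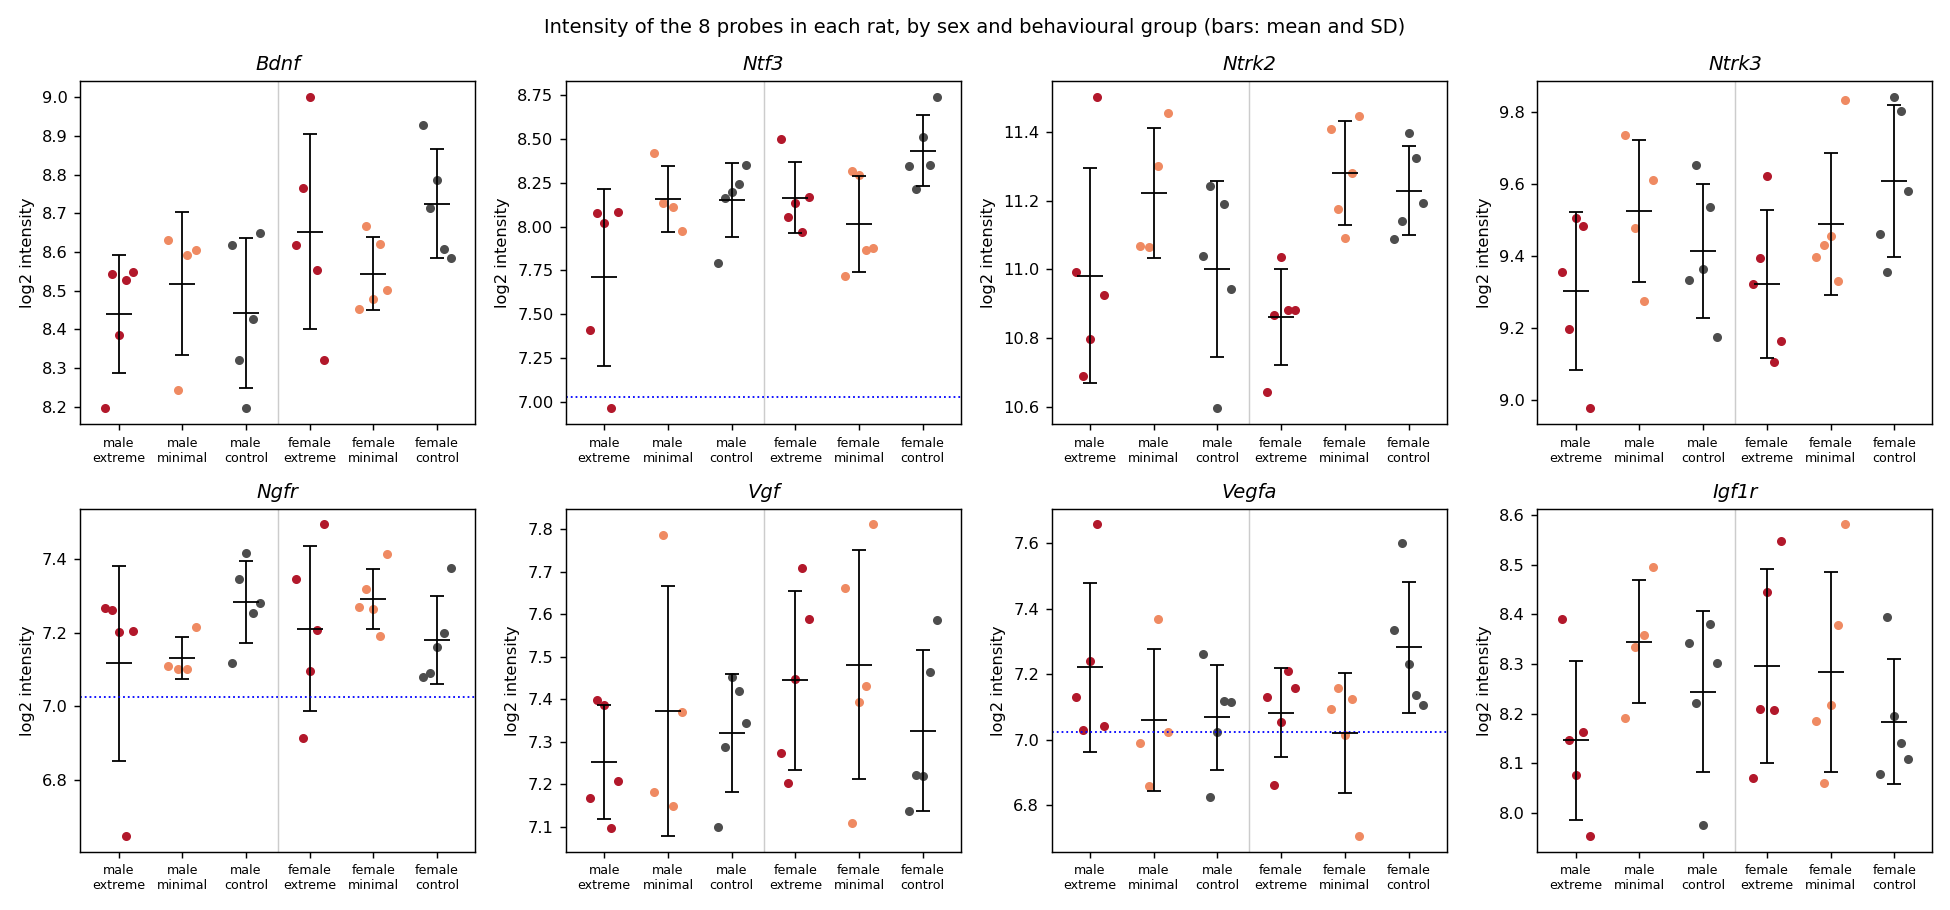
Log2 intensity of the 8 probes in each rat (points) by sex and group, with the mean and SD (bars); the dotted line is the background threshold of 7.02 where it falls in the panel. Among groups of 1 sex, the only ones that do not overlap are the female extreme responders for *Ntrk2*, which lie below the other females.

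In the order of the 6 group means of each gene, neighbouring groups lay closer than the larger of their SDs with a single exception. That was *Ntf3*, where the female control mean of 8.43 stood 0.27 above the next group, the female extreme responders, against an SD of 0.20. Of the same 8 genes, 6 had lower values in extreme than in minimal responders over both sexes, with a median log2 difference of −0.09 against −0.00 for all probes, of which 51.4% were lower. The count was 6 of 8 against controls as well, with a median of −0.05 against −0.01 for all probes and 53.2% lower. Both counts rest on the same extreme responders. In exposed rats of both sexes it was again 6 of 8 against controls, with a median of −0.04, and 52.9% of all probes were lower.

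Outside the contrast of extreme and minimal responders over both sexes, 0 of the 8 passed in each of the other comparisons. Unadjusted p under 0.05 in limma is given here beside the share of all probes that were lower at that level. In female extreme responders relative to controls, *Ntrk2* and *Ntrk3* were lower before adjustment (6.78% of probes), and 119 probes passed after it (0.999%). Relative to female minimal responders, *Ntrk2* alone was lower (9.99%), and 450 probes passed (3.78%). In female minimal responders relative to controls, *Ntf3* and *Vegfa* were lower (5.39%), and 0 probes passed (0%). In male extreme responders, *Ntf3* was lower relative to controls (9.28%, with 0.622% passing) and relative to minimal responders (8.22%, with 0.0756% passing). None of the 8 was lower at that level in male minimal responders relative to controls (2.24%, with 0% passing). Over both sexes, *Ntf3*, *Ntrk2* and *Ntrk3* were lower in extreme responders than controls (10.9%, with 4.93% passing), *Ntrk2* and *Ntrk3* in extreme than minimal responders (12.9%), and *Ntf3* in exposed rats than controls (4.85%, with 0.109% passing). In the 3 tests of a difference between the sexes, the shares passing were 0.0168% for extreme responders against controls, 0% for extreme against minimal responders and 0% for exposed rats, with 8.49%, 7.84% and 9.67% in either direction before adjustment. Of the members, *Vegfa* had an unadjusted p under 0.05 for extreme responders against controls and for exposed rats, and *Ntf3* for extreme against minimal responders.

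**Figure D4:**
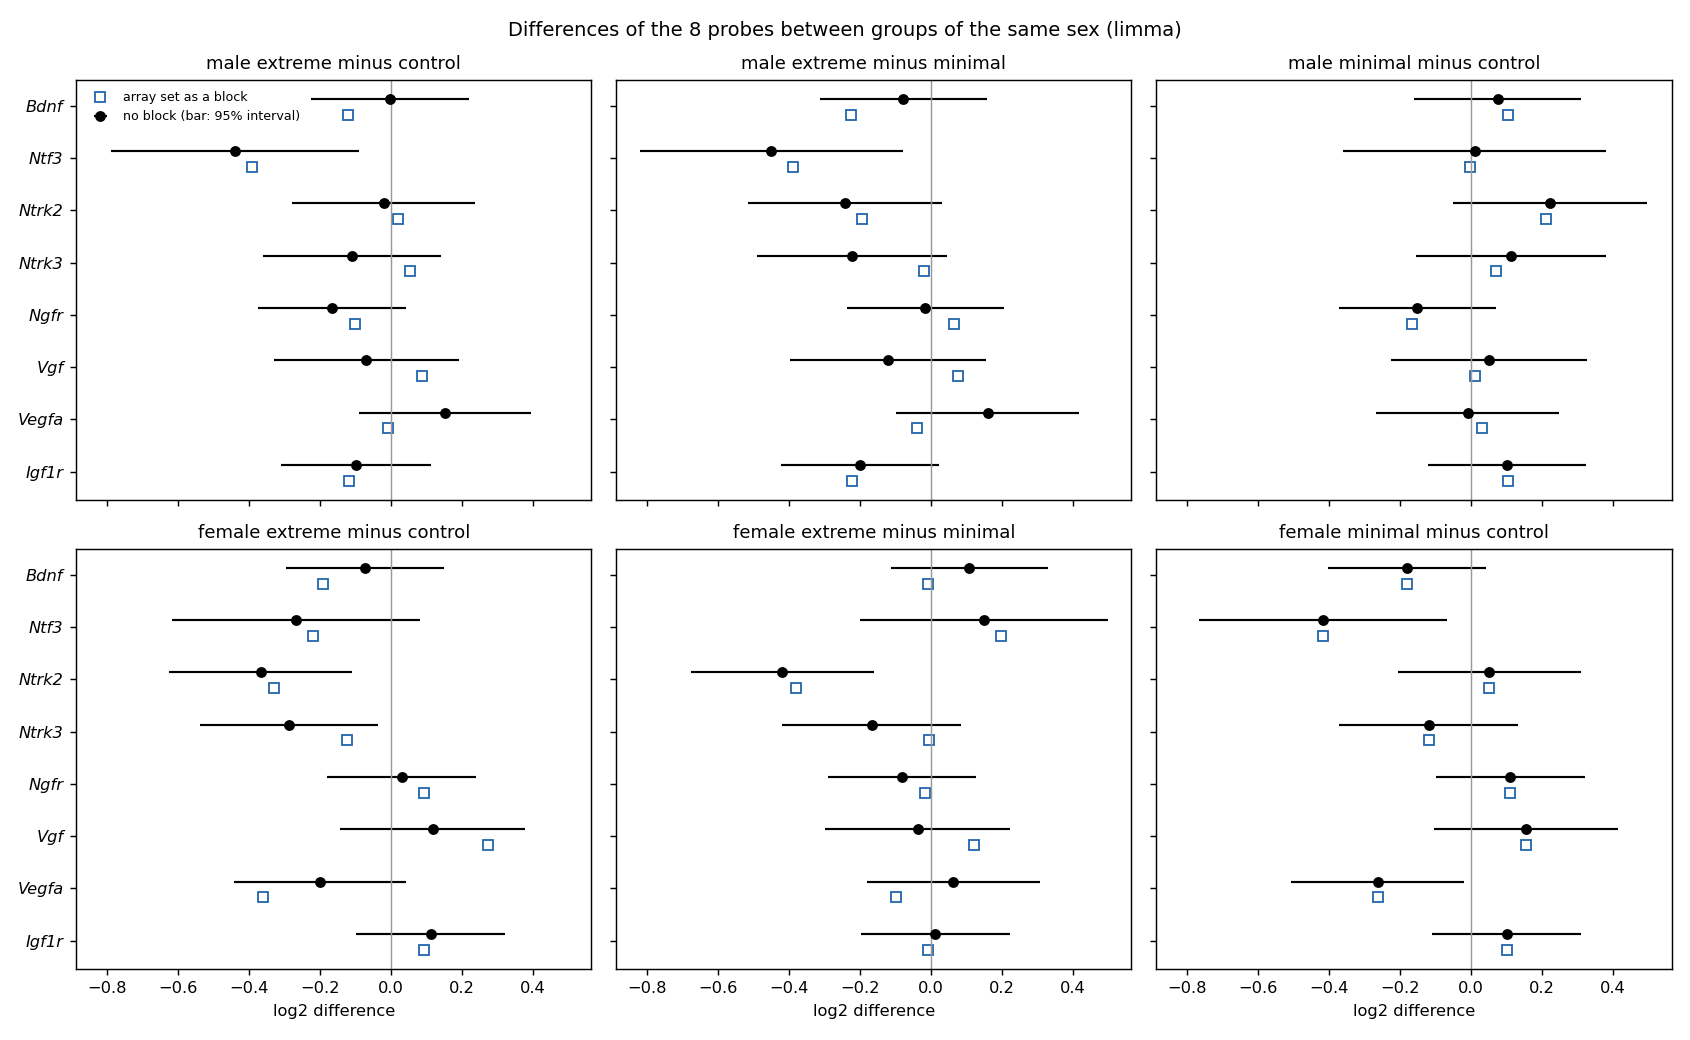
Log2 differences of the 8 genes between groups of 1 sex (x axis), without a block (black points, bars are 95% intervals) and with the array set as a block (blue squares). The *Ntrk2* intervals of female extreme responders lie below 0. The blocked values of *Ntrk3*, *Vgf* and *Vegfa*, and by less those of *Bdnf*, are displaced in every comparison with extreme responders.

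Genes on either side of the receptors were counted in lists of pathway members. The list of neurotrophins, their receptors and sortilins had 9 of 15 genes past the filter, and in extreme relative to minimal responders of both sexes *Ntrk2* fell and 0 rose. In the list of enzymes that process neurotrophin precursors and of granins, 3 of 11 genes rose and 0 fell, in a comparison in which 7.93% of all probes passed. *Plat*, tissue plasminogen activator, which makes the plasmin that cleaves the BDNF precursor, rose by 0.51 ± 0.08 (SE, adjusted p = 0.000539). *Scg5* (0.30 ± 0.07, adjusted p = 0.0111), a helper of a prohormone convertase, and *Pcsk6* (0.27 ± 0.09, adjusted p = 0.0482), a convertase, rose as well. The endothelial markers *Cd93* (0.46 ± 0.11, adjusted p = 0.0087) and *Tie1* (0.29 ± 0.07, adjusted p = 0.0106) rose in the same comparison, and their part in the value of *Plat* was not tested. With the set as a block *Plat* kept its call (0.54, adjusted p = 0.0055), while *Scg5* (0.23, adjusted p = 0.146) and *Pcsk6* (0.19, adjusted p = 0.321) lost theirs. In females, *Plat* was 0.79 ± 0.11 higher in extreme than in minimal responders (adjusted p = 0.000144) and 0.58 ± 0.11 higher than in controls (adjusted p = 0.00618).

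Below the receptors, the calls went in both directions. Of 19 adaptors of Trk and p75, *Grb2*, which links receptors to Ras, fell by 0.19 on the log2 scale in extreme relative to minimal responders of both sexes (adjusted p = 0.0252, and 0.0427 with the block). Of 18 genes of the MAPK and PI3K cascade, 3 rose and 2 fell, again beside 7.93% of all probes. The kinase *Pdpk1*, which activates AKT, differed by −0.37 ± 0.08 (SE, adjusted p = 0.00398), and the MAPK kinase *Map2k2* by −0.26 ± 0.06 (adjusted p = 0.00613). *Akt1* rose by 0.47 ± 0.12 (adjusted p = 0.0133), *Akt2* by 0.27 and the PI3K subunit *Pik3cb* by 0.21. With the set as a block *Map2k2* kept its call (−0.29, adjusted p = 0.0327) and the others did not. *Pdpk1* (−0.31, adjusted p = 0.0672) and *Pik3cb* (0.19, adjusted p = 0.170) were then about as large as without the block, while *Akt1* (0.14, adjusted p = 0.437) and *Akt2* (0.10, adjusted p = 0.579) were smaller.

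Of 18 feedback regulators and genes induced by activity or by BDNF, *Spred1*, an inhibitor of the Ras pathway, fell in the same comparison (−0.47 ± 0.11, adjusted p = 0.0111). With the block it stood at −0.44 (adjusted p = 0.0856), and 2 others passed. *Spry2*, another Ras pathway inhibitor, was at −0.31 (adjusted p = 0.0208), but at −0.03 without the block (adjusted p = 0.867). *Errfi1*, a receptor inhibitor, was at 0.34 (adjusted p = 0.0355), and at 0.22 without it (adjusted p = 0.0681). In females *Errfi1* was 0.60 ± 0.10 higher (adjusted p = 0.00190). Its difference between the sexes in this contrast, male minus female, was −0.75 ± 0.15 (adjusted p = 0.0800, and 0.0448 with the block). In female extreme responders relative to controls, 3 of these 18 rose, where 0.999% of all probes passed, namely the immediate early genes *Arc* (1.21 ± 0.24, adjusted p = 0.0108) and *Junb* (0.95 ± 0.21, adjusted p = 0.0184) and *Errfi1* (0.57 ± 0.10, adjusted p = 0.00537). With the block 4 rose, with *Dusp1* added (1.51, adjusted p = 0.0248), and *Spry2* fell (−0.53, adjusted p = 0.00137), where 189 of 11906 probes passed. Without it *Dusp1* was at 1.16 (adjusted p = 0.100) and *Spry2* at −0.28 (adjusted p = 0.324). In male extreme responders relative to controls 0 of the 18 passed, with a median of 0.10, and the difference between the sexes, male minus female, was −0.75 ± 0.15 for *Errfi1* (adjusted p = 0.0768, and 0.0226 with the block). No difference between the sexes was called for *Arc* or *Junb*. Over both sexes, *Arc* (0.78, adjusted p = 0.00904) and *Fos* (0.57, adjusted p = 0.0298) rose and *Spred1* fell (−0.41, adjusted p = 0.0303) relative to controls, where 4.93% of all probes passed. With the block *Arc* and *Fos* kept their calls and *Spred1* did not, while *Junb* (0.65, adjusted p = 0.0310) and *Spry2* (−0.37, adjusted p = 0.00356) were among those passing. Without it *Junb* was at 0.48 (adjusted p = 0.0531) and *Spry2* at −0.12 (adjusted p = 0.480). The median over that list in females was 0.26, against −0.01 for all probes, while *Bdnf*, also induced by activity, was at −0.07 in the same females. The lists around VEGF (16 genes) and IGF (11 genes) held 0 calls in extreme relative to minimal responders of both sexes, where 7.93% of all probes passed. At an unadjusted p under 0.05 in either direction they held 3 and 2 genes. At that level 12.9% of all probes were lower, and those that were higher are not counted here. Of 26 other growth factors and receptors, *Manf*, an endoplasmic reticulum stress factor (−0.28 ± 0.07, adjusted p = 0.0112), and the receptor *Erbb2* (−0.21 ± 0.06, adjusted p = 0.0235) fell, beside the same 7.93%. Neither had a call under the block. Relative to controls *Manf* passed in both fits. It was −0.50 ± 0.09 in male extreme responders (adjusted p = 0.0161, and 0.0317 with the block), where 0.622% of all probes passed. Over both sexes it was −0.34 ± 0.07 (adjusted p = 0.00331, and 0.0310 with the block), where 4.93% passed.

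Markers of other cell types moved in the comparison in which *Ntrk2* fell. In that comparison 7.93% of all probes passed (2.05% with the set as a block), and 51.4% had lower values. Of 9 astrocyte markers, 8 had higher values in extreme than in minimal responders of both sexes and *Aldoc* and *Slc1a2* rose, while 0 passed with the set as a block. The mean astrocyte level ran from 11.45 to 11.77 in male extreme responders and from 11.39 to 11.60 in male minimal responders, and in females from 11.46 to 11.76 and from 11.39 to 11.62. Of 11 oligodendrocyte markers, 10 were higher and *Cnp*, *Olig1* and *Cldn11* rose, with 0 calls under the block. Of 5 endothelial markers all were higher, and *Cd93* and *Tie1* rose with and without the block. In females alone *Cd93* was 0.80 ± 0.15 (adjusted p = 0.00257) and *Tie1* 0.40 ± 0.09 higher (adjusted p = 0.0148). The median over rats of the mean endothelial level was 8.49 in male extreme and 8.47 in male minimal responders. Among females it was 8.70 and 8.37. Of 12 hippocampal neuron markers, 8 were lower and *Nrgn* fell, without a call under the block. None of 7 microglial and 10 interneuron markers passed. For tissue next to the hippocampus, 5 of 7 striatal markers were lower and *Adora2a* fell (−0.26 ± 0.07, adjusted p = 0.0297), which with the block stood at −0.12 (adjusted p = 0.427). The 4 thalamic markers were higher and the 1 neocortical marker lower, with 0 calls. All 7 choroid plexus markers had lower values, with 0 calls, and their mean level ran from 7.53 to 11.24 between rats. The part of these cell types and tissues in the value of *Ntrk2* was not tested.

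For each gene, the probes that followed it most closely across the 29 rats were picked from all kept probes that name 1 gene. A search that wide returns high values by itself, so they cannot be set against the correlations among the members. All are Pearson correlations over rats that share groups, sets and the normalisation, given as a description. For *Ntrk2* the nearest were *Pdpk1* (0.77), *Gdf1* (0.77) and *Atp6v1b2* (0.75), and they held with the set means removed (0.72, 0.74 and 0.83). For *Bdnf* they were *Schip1* (0.81), *Exoc6* (0.79) and *Lgi1* (0.76). For *Ntf3* they were *Arg1* (0.84), *Filip1* (0.81) and *Fkbp9* (0.81), which came to 0.72, 0.71 and 0.64 without male extreme responder 4. *Ntrk3* went with *Anxa7* (0.78), *Ifngr2* (0.78) and *Iqsec3* (0.75), which came to 0.62, 0.57 and 0.60 with the set means removed. *Ngfr* went with *Amhr2* (0.76, and 0.62 without male extreme responder 4), *Vgf* with *Kcnh2* (0.76), *Vegfa* with *Cdyl* (0.80) and *Igf1r* with *Ambra1* (0.68). Among the 8 themselves the strongest was *Ntrk2* with *Ntrk3*, at 0.56, while *Bdnf* with *Ntrk2* stood at 0.18 and *Ntf3* with *Ntrk3* at 0.17.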

How the data were processed

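Hippocampal RNA was hybridised to Illumina arrays. The deposited values are log2 intensities normalised by the authors; no source used here names the software, the background correction or the log base, and the scale was read from the values (6.31 to 15.0, sorted values of all arrays within 0.00119, as after quantile normalisation). A table of unnormalised signals had been planned for; its 60 columns match no label and were not used. Probes above 7.02 (background mode 6.70 plus 3 SD of 0.108) on at least 5 arrays were kept. All 6 groups were fitted in limma 3.58.1 (R 4.3.3) with no blocking factor (residual degrees of freedom 23, prior 5.06), two-sided p and Benjamini-Hochberg adjustment over the 11906 probes (threshold 0.05). Arrays have no depth, so the number of rats limits the precision. Genes were named from the platform's probe annotation, and the IDs of all 8 members matched RefSeq. Beside the members, the text names up to 4 genes of each list that passed in the comparisons it describes (all where 5 or fewer passed), marker genes that passed between extreme and minimal responders of both sexes, and up to 3 probes per member with the highest correlation. The members, lists and tests were chosen with earlier results of these data known. The array sets were defined from the values. Replicate numbers did not pair the rats (median correlation of deviations −0.01 for same-numbered rats). The fit was tested on simulated data. Alternatives were other filters, blocks by set or replicate number, array weights, each sex alone, cyclic loess, a variance trend, set B alone and leaving out each rat. Figures were drawn in Python 3.11.15.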

Additional observations from a re-analysis of the deposited data

Results flagged for a closer look

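In 4 of 48 combinations of gene and group, the most extreme rat lay far from the others by Dixon's criterion, which chance meets in about 1 of 20. *Bdnf* in male minimal responder 2 was at 8.24, against 8.59 in the nearest of that group. *Ngfr* in male extreme responder 4 was at 6.65, against 7.20, in the rat whose whole array stood apart. *Ngfr* in male minimal responder 4 was at 7.22, against 7.11, a gap of small size in a group that spread little. *Ntrk3* in female minimal responder 5 was at 9.83, against 9.45.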

How the results depend on the processing

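The count of members passing changed in 4 comparisons. It was 1 for extreme against minimal responders of both sexes and 0 with the array set as a block, and 0 to 1 without single rats. It was 0 for female extreme against minimal responders, and 1 with array weights and with each sex alone (*Ntrk2*), with 0 to 1 without single rats. It was 0 for extreme responders of both sexes against controls, 1 with array weights (*Ntf3*) and 1 with the set block without male extreme responder 4 (*Vegfa*, a setting chosen after seeing the data), with 0 to 1 without single rats. For female extreme responders against controls it was 0, 1 with each sex alone (*Ntrk2*) and 1 with the set block without male extreme responder 4 (*Vegfa*). No value with an unadjusted p under 0.05 changed sign under any alternative run. Among all 96 member differences, the set block turned 18, all without a call. With replicate number as a block, *Ntrk2* in extreme against minimal responders stood at −0.33 (adjusted p = 0.0228), and no call on a member changed; over all probes 882 passed in place of 944. That block gave 35 probes in place of 74 for male extreme responders and controls, 0 in place of 9 for male extreme and minimal responders, and 0 in place of 13 for exposed rats. Since 2 of 29 rats correlated best with a rat of their own number, it is not read as a pairing. The set block gave 244 in place of 944 probes for extreme and minimal responders of both sexes, 337 in place of 587 for extreme responders and controls, and 189 in place of 119 for female extreme responders and controls. The cause of these shifts was not tested. Dim probes (*Vegfa*, *Ngfr*) limit what a small difference can show.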

Other observations

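A contrast of male with female rats over all groups was added after seeing the data. *Bdnf* had a mean of 8.47 in males and 8.64 in females, a log2 difference of −0.17 ± 0.06 (SE, unadjusted p = 0.0111, adjusted p = 0.285), and *Ntf3* 8.01 in males and 8.20 in females (adjusted p = 0.476). With the array set as a block the *Bdnf* difference was −0.16 (adjusted p = 0.200). None of the 8 passed, while 25 of 11906 probes did (0.21%).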
